A study of Mus musculus with 8 samples.

Results

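Cholesterol and fatty acid synthesis was followed through 38 genes of the 18533 gene symbols in the count data. They were taken by symbol from a set list and comprised 8 enzymes from acetyl-CoA to squalene, 10 enzymes from squalene to cholesterol, 5 genes that regulate SREBP, 6 genes of sterol transport and export, and 9 genes of fatty acid synthesis. RNA-Seq was performed on primary mouse aortic smooth muscle cells (MASMCs) from male WT mice (n = 4) and male Hint1-/- mice (n = 4) aged 4 to 6 weeks, and the study's methods describe littermate comparisons. Both genotypes received PDGF-BB, a growth factor that drives smooth muscle cells out of their contractile state, at 20 ng/ml for 24 h, and no group without PDGF-BB was analysed here. The Hint1-/- genotype was not restricted to smooth muscle, and the methods name the thoracic aorta in one place and the whole aorta in another as the source of the cells. The labels do not say whether the samples came from separate mice or cultures, so p-values measure the spread between these samples, which may be technical.

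Animal cells build cholesterol from acetyl-CoA by way of mevalonate, farnesyl diphosphate, squalene, and lanosterol. The transcription factors SREBP-1 and SREBP-2, encoded by *Srebf1* and *Srebf2*, are held in the endoplasmic reticulum by SCAP and the INSIG proteins while sterol is plentiful. When sterol falls they are carried to the Golgi, cleaved, and sent to the nucleus, where SREBP-2 mainly activates genes of cholesterol synthesis and SREBP-1 those of fatty acid synthesis. The nuclear receptors LXRα and LXRβ sense oxidised sterols and activate genes of sterol export, among them *Abca1* and *Abcg1*. Smooth muscle cells of the artery wall can take up and store cholesterol when they leave the contractile state.

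SREBPs are known to act at promoters beside the factor NF-Y, so the promoters of 4 genes at different steps are shown, from 250 bases before to 50 bases after a transcription start in the RefSeq table for GRCm38.p6. Lower case is sequence, and capitals mark matches on either strand to an SRE, spelled TCACNCCAC, or to an NF-Y box, spelled CCAAT or, on the other strand, ATTGG. The promoter of *Hmgcs1* (chr13:119690101-119690400, plus strand) is shown because it was the only one of the members' promoters with the SRE letters. The promoter of *Mvk* (chr5:114444019-114444318, plus strand) held 5 NF-Y boxes. The promoter of *Lss* (chr10:76531355-76531654, plus strand) held 1. The promoter of *Abca1* (chr4:53159846-53160145, minus strand), a gene of sterol export, held neither set of letters. These 4 do not stand for their groups. *Mylip* and *Npc2*, of sterol transport and export, held 3 and 2 NF-Y boxes, and *Acat2*, of sterol synthesis, held 0. Any link between these letters and the changes below was not tested.
Hmgcs1: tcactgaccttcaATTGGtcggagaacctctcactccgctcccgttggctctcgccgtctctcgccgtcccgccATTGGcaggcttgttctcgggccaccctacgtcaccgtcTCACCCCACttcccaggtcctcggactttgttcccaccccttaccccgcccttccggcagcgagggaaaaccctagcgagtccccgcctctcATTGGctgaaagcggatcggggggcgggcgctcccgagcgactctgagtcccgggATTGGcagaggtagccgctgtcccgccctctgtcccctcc
Mvk: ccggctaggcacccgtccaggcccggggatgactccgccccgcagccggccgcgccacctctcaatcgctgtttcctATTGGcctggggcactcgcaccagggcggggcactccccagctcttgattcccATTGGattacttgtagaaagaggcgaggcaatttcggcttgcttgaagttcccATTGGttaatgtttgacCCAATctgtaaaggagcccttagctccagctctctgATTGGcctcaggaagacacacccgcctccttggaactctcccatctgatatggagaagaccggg
Lss: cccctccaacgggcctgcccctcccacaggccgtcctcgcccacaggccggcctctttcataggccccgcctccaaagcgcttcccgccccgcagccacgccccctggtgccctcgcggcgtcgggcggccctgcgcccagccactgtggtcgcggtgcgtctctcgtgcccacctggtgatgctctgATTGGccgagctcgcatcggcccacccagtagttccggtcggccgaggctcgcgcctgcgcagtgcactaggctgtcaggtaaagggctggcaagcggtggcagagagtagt
Abca1: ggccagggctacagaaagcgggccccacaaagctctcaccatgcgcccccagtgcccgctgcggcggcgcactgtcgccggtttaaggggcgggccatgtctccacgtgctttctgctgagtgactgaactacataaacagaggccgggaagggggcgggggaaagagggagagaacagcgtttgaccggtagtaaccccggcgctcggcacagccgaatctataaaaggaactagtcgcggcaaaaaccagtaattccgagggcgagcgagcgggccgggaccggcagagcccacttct

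Promoters were found for 29 of the 38 genes in the RefSeq table. The genes without one were *Abcg1*, *Fads1*, *Fdft1*, *Fdps*, *Npc1*, *Scd1*, *Scd2*, *Sqle*, and *Stard4*. The NF-Y box was in a promoter of 14 of 15 genes of sterol synthesis with an entry, which is 93.3%, and in 23 of all 29, which is 79.3%. Among all tested genes with a promoter the share was 43.2%, or 4650 of 10767, and it was 37.4% of all 32851 promoters in the table. In *Mvk* the boxes began 173, 120, 67, 50, and 14 bases before the start, and the single box of *Lss* began 62 bases before it. In *Hmgcs1* the SRE letters began 137 bases before the start, between NF-Y boxes that began 176 and 45 bases before it. The SRE letters were present in 1 of the 29 genes and in 1.39% of all tested genes with a promoter, and the GC box GGGCGG in 14 of the 15 genes of sterol synthesis and in 66.9% of tested genes. The E-box CACGTG was in 3 of the 15 genes of sterol synthesis and in 11.3% of tested genes. These 4 motifs do not contain one another, and a match describes letters and not a bound site.

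Estimated counts summed to 20778077 to 20888041 per sample, of which the 38 genes took 0.653% to 0.760% in WT and 0.804% to 0.872% in Hint1-/- MASMCs. *Hint1*, the targeted gene, had 2272, 2336, 2364, and 2301 counts in WT samples 1 to 4 and 713, 748, 778, and 715 counts in Hint1-/- samples 1 to 4, which were lower in every case. The mean level in Hint1-/- samples, 35.6 CPM, was 0.321 of the WT mean, so counts assigned to *Hint1* were not absent in cells labelled Hint1-/-. Levels are given as CPM, counts scaled to library size after TMM normalization, and a gene was called changed at an adjusted p under 0.05 from edgeR's quasi-likelihood test with Benjamini-Hochberg adjustment over 13535 genes. Smooth muscle markers were present, with *Acta2* at 826 CPM in WT and 578 CPM in Hint1-/- cells and *Myh11* at 20.4 CPM and 6.98 CPM, and 5 of 7 were lower in Hint1-/- cells and 1 higher. The 7 smooth muscle markers summed to 1352 to 1469 CPM in WT and 1117 to 1207 CPM in Hint1-/- samples. The summed level of 8 macrophage markers was above that, at 1888 to 2187 CPM in WT and 1530 to 1625 CPM in Hint1-/- samples. The lists hold different genes, so their sums do not give the shares of cell types. Of the 7 macrophage markers tested, 5 were lower and 1 higher. *Lyz2* stood at 1202 CPM in WT and 966 CPM in Hint1-/- cells, and *Csf1r* at 396 CPM and 305 CPM. *C1qa*, a marker of resident macrophages, had at most 15 counts in any sample. The adipocyte list summed to 95.9 to 105 CPM in WT and 91.7 to 107 CPM in Hint1-/- samples with none of 3 tested genes called by edgeR, DESeq2, or limma-voom (1 at an unadjusted p under 0.05 in edgeR), and *Adipoq*, *Plin1*, *Cidec*, and *Retn* at 4 counts or fewer in every sample. Summed levels were 4.15 to 6.36 CPM in WT and 3.89 to 6.28 CPM in Hint1-/- samples for 6 endothelial markers (4 tested, none called by any of the 3 tools, 1 at an unadjusted p under 0.05 in edgeR), 56.1 to 61.1 CPM and 23.2 to 26.0 CPM for 6 Schwann cell markers (4 lower), and 1446 to 1562 CPM and 2412 to 2536 CPM for 5 fibroblast markers (3 higher, 1 lower). The part of these markers in the changes below was not tested, and in these bulk samples fewer cells of a type and less RNA per cell cannot be told apart.

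All 38 genes passed the filter on low counts. In Hint1-/- MASMCs, 29 of them were higher and 1 was lower, whereas 11.2% of all tested genes were higher and 10.2% lower. Every enzyme of sterol synthesis on the list rose, 18 of 18, and so did 7 of 9 genes of fatty acid synthesis, while of the 6 genes of sterol transport and export *Stard4* rose and *Abcg1* fell. Nearly all of these changes were under 1.5-fold. The median log2 fold change was 0.34 over the 38 genes and 0.00031 over all tested genes, and a fold change over 1.5 was passed by *Stard4* alone among the higher genes, where 1.34% of tested genes passed it, and by *Abcg1* among the lower, where 1.49% did. For 26 of the 38 genes every Hint1-/- sample exceeded every WT sample, and for *Abcg1* every one lay below, compared with 11.9% and 11.0% of tested genes.

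**Figure D1:**
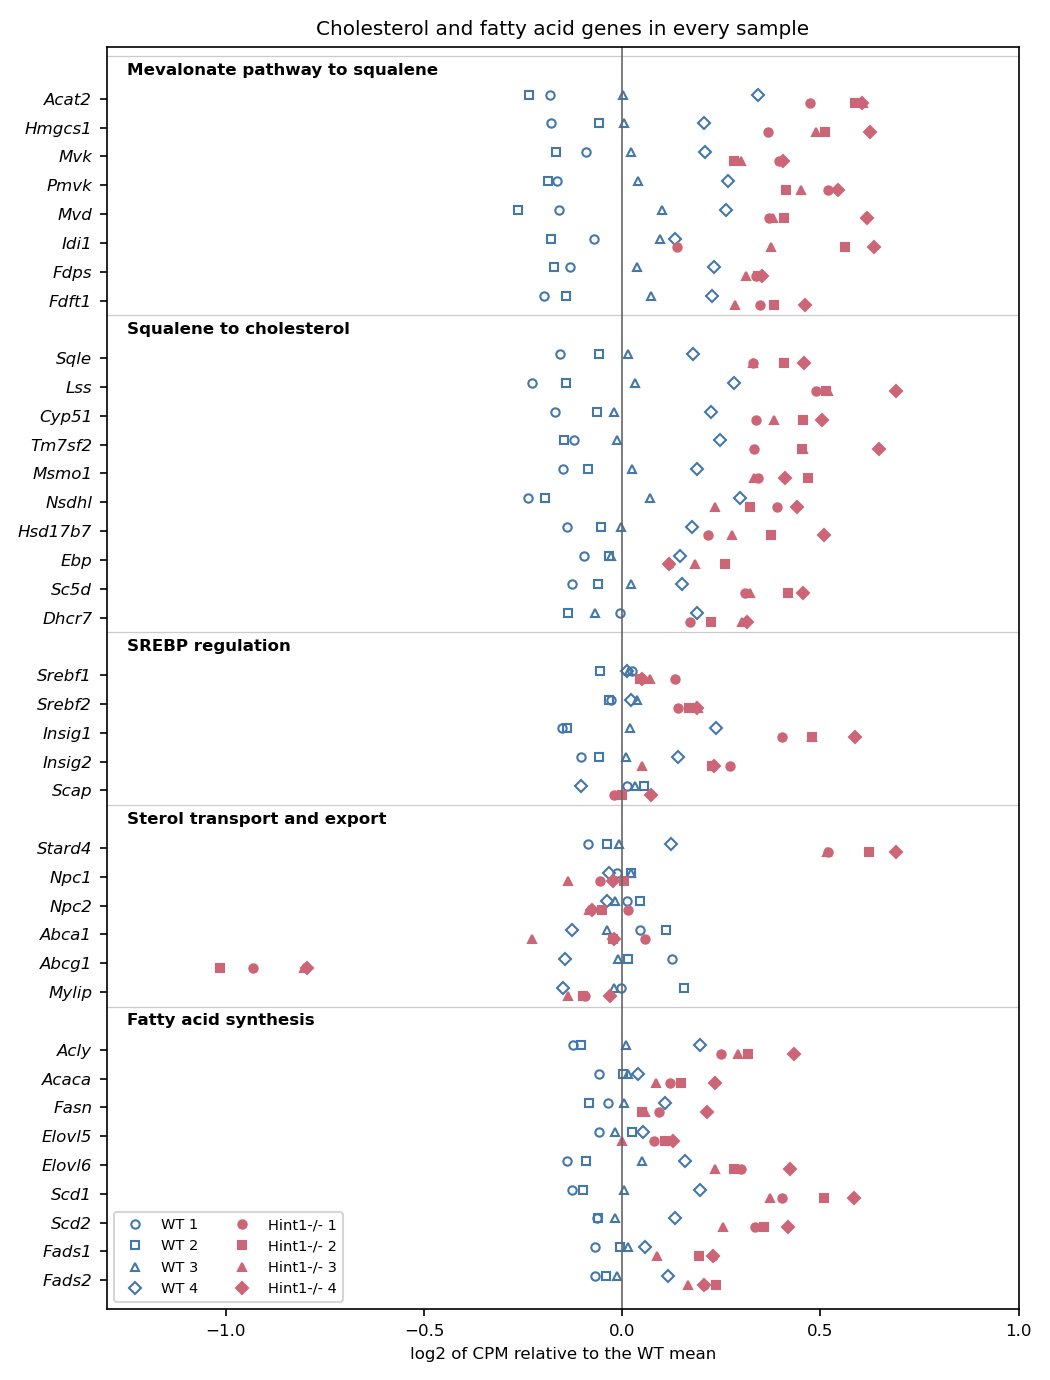
Level of each of the 38 genes in every sample, as the log2 of CPM relative to the mean of the 4 WT samples. Open symbols are WT and filled symbols Hint1-/- samples, with one shape per replicate number. The WT diamonds (replicate 4) lie to the right of the other WT samples in 18 of 18 sterol synthesis genes, and *Abcg1* is the one gene whose Hint1-/- samples all lie to the left of the WT samples.

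The WT samples were spread in these genes, with samples 1 and 2 lowest and sample 4 highest. WT samples 1 and 2 held the lowest WT level in 10 and 8 of the 18 genes of sterol synthesis. WT sample 4 had the highest WT level in 18 of 18 genes of sterol synthesis and in 9 of 9 genes of fatty acid synthesis, whereas it was the highest WT sample for 26.8% of all tested genes. Hint1-/- sample 4 was the highest of its genotype in 15 of the 18 and 8 of the 9, and in 28.2% of all tested genes. Over the 18 sterol genes the median coefficient of variation, the SD as a percentage of the mean, was 11.7% in WT and 5.08% in Hint1-/- samples, beside 5.35% and 5.05% over all tested genes. By this measure the WT samples were the more spread in this pathway, a difference that was not tested. Without WT sample 4, 30 of the 38 genes were called higher and 1 lower. The Hint1-/- samples then lay above the WT samples in 18 of 18 sterol genes and in 31 of the 38, compared with 14.2% of all tested genes. WT sample 4 was picked for being the highest WT sample in these genes. Leaving it out could only widen their separation, so this is no independent support. The share of all tested genes was not subject to that choice. The macrophage markers were also highest in WT sample 4 among all samples, at 2187 CPM, and the part of this in the levels of WT sample 4 was not tested.

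The listed enzymes that lead from acetyl-CoA to squalene were all higher in Hint1-/- cells, 8 of 8, with a median log2 fold change of 0.44 and a range of 0.34 to 0.57. Their summed level was 715 to 938 CPM in WT and 1027 to 1123 CPM in Hint1-/- samples, a ratio of means of 1.34. In no gene of this group did the genotypes overlap in CPM, although the unscaled counts of *Idi1* did. *Acat2*, the thiolase that joins acetyl-CoA units, had 1512, 1468, 1724, and 2179 counts in WT samples 1 to 4 and 2369, 2558, 2608, and 2597 in Hint1-/- samples 1 to 4. WT sample 4 was closest to the Hint1-/- samples and still below all of them, and the log2 fold change of 0.57 (SE 0.0827, edgeR adjusted p = 5.25e-05) was the largest of the group. With single samples left out the log2 fold change ranged from 0.50 to 0.70, the latter without WT sample 4. Among those fits it passed a fold change of 1.5 only without WT sample 4 or Hint1-/- sample 1. With all samples it passed that limit in limma-voom (log2 fold change 0.586). *Hmgcs1*, the synthase whose promoter is shown above, had 2951, 3226, 3363, and 3857 counts in WT samples and 4287, 4722, 4676, and 5126 in Hint1-/- samples. Its lowest Hint1-/- sample was 1.12 times its highest WT sample, and the log2 fold change was 0.50 (SE 0.0624, edgeR adjusted p = 9.09e-06).

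Mevalonate is phosphorylated by *Mvk* and *Pmvk* and decarboxylated by *Mvd*. For *Mvk*, counts were 1029, 983, 1117, and 1268 in WT samples and 1435, 1322, 1347, and 1446 in Hint1-/- samples. *Pmvk* counts were 554, 549, 641, and 748 in WT samples and 886, 821, 848, and 903 in Hint1-/- samples. *Mvd* had 909, 851, 1091, and 1219 counts in WT samples and 1304, 1336, 1318, and 1550 in Hint1-/- samples. In each of these genes WT samples 1 and 2 were the lowest of all samples and the genotypes stayed apart. The log2 fold changes were 0.35 for *Mvk* (SE 0.0597, edgeR adjusted p = 0.000308), 0.48 for *Pmvk* (SE 0.0730, edgeR adjusted p = 7.90e-05), and 0.45 for *Mvd* (SE 0.0824, edgeR adjusted p = 0.000584).

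*Idi1* interconverts the isoprene building blocks, *Fdps* joins them into farnesyl diphosphate, and *Fdft1* makes squalene from it. *Idi1* had 659, 615, 742, and 760 counts in WT samples and 757, 1014, 895, and 1070 in Hint1-/- samples. It was the closest call of the group, since the lowest Hint1-/- sample, at 36.5 CPM, lay next to the highest WT sample, at 36.4 CPM, and the log2 fold change was 0.44 (SE 0.0849, edgeR adjusted p = 0.000916). *Fdps* counts were 4794, 4692, 5407, and 6175 in WT samples and 6603, 6610, 6507, and 6681 in Hint1-/- samples. The 4 Hint1-/- samples lay within a narrow band while the WT samples did not, with 318 ± 3.79 CPM against 252 ± 33.0 CPM (SD, n = 4), and the log2 fold change was 0.34 (SE 0.0606, edgeR adjusted p = 0.000473). *Fdft1* had 2516, 2629, 3041, and 3378 counts in WT samples and 3649, 3732, 3505, and 3952 in Hint1-/- samples. No Hint1-/- sample fell to the WT range (log2 fold change 0.37, SE 0.0666, edgeR adjusted p = 0.000468), and 774 bases of its exons overlap those of *Ctsb* on the other strand. Shared exon sequence leaves the counts of *Fdft1* uncertain, since the strand setting of the counting is not given in the sources used here. *Fdft1* counts were fractional in every sample. *Fdps* shares 1124 bases with *Gm43738* on the same strand, but its counts were whole in every sample. How reads from that shared stretch were assigned is not known.

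All 10 listed enzymes from squalene to cholesterol were higher in Hint1-/- cells, with a median log2 fold change of 0.38 and a range of 0.17 to 0.56. In 7 of them the genotypes did not overlap. Their summed level was 1044 to 1340 CPM in WT and 1463 to 1608 CPM in Hint1-/- samples, a ratio of means of 1.31. Squalene epoxidase, encoded by *Sqle*, makes the substrate that lanosterol synthase, encoded by *Lss*, closes into the sterol ring system. *Sqle* had 2878, 3102, 3254, and 3639 counts in WT samples and 4011, 4229, 4023, and 4391 in Hint1-/- samples. *Lss* had 1682, 1799, 2023, and 2401 counts in WT samples and 2749, 2794, 2819, and 3167 in Hint1-/- samples. *Lss* showed the widest gap of the sterol enzymes between the highest WT and the lowest Hint1-/- sample, a ratio of 1.15. It also had the largest log2 fold change of this group, 0.56 (SE 0.0759, edgeR adjusted p = 2.70e-05). With single samples left out that value ranged from 0.49 to 0.66, the latter without WT sample 4. The log2 fold change of *Sqle* was 0.38 (SE 0.0533, edgeR adjusted p = 3.33e-05).

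Lanosterol loses its methyl groups through *Cyp51*, *Tm7sf2*, *Msmo1*, *Nsdhl*, and *Hsd17b7*, which encode a demethylase, a reductase, an oxidase, a dehydrogenase, and a reductase. *Cyp51* counts were 4290, 4645, 4773, and 5641 in WT samples and 6065, 6569, 6277, and 6815 in Hint1-/- samples, giving a log2 fold change of 0.42 (SE 0.0600, edgeR adjusted p = 4.17e-05), and 166 of its exon bases overlap *Akap9* on the other strand. *Msmo1* had 4800, 5046, 5432, and 6068 counts in WT samples and 6711, 7314, 6685, and 7041 in Hint1-/- samples, giving a log2 fold change of 0.39 (SE 0.0545, edgeR adjusted p = 3.49e-05). Both were among the more abundant sterol enzymes per exon length, at 52.4 CPM per kb for *Cyp51* and 41.5 CPM per kb for *Msmo1* in WT cells. *Tm7sf2* was the scarcest of the 38 genes on that scale, at 2.04 CPM per kb in WT and 2.84 CPM per kb in Hint1-/- cells. Its counts were 172, 170, 186, and 222 in WT samples and 234, 254, 256, and 292 in Hint1-/- samples, a log2 fold change of 0.48 (SE 0.0899, edgeR adjusted p = 0.000728), and its exons share 532 bases with *Vps51* on the same strand. For *Hsd17b7* the counts were 1488, 1591, 1641, and 1854 in WT samples and 1892, 2111, 1980, and 2324 in Hint1-/- samples. The Hint1-/- samples of *Hsd17b7* began just above WT sample 4, and the log2 fold change was 0.35 (SE 0.0618, edgeR adjusted p = 0.000414).

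*Sc5d*, a desaturase of the late steps, had 3240, 3413, 3600, and 3932 counts in WT samples and 4357, 4693, 4409, and 4835 in Hint1-/- samples. It had the lowest adjusted p of the enzymes after squalene, with a log2 fold change of 0.38 (SE 0.0496, edgeR adjusted p = 1.71e-05). The other genes of this group, *Nsdhl*, *Ebp*, and *Dhcr7*, were called higher although their genotypes overlapped, in each case with WT sample 4 inside the Hint1-/- range. *Nsdhl* ranged from 1663 to 2411 counts in WT and from 2300 to 2648 counts in Hint1-/- samples, giving a log2 fold change of 0.35 (edgeR adjusted p = 0.0044), and it was not called by DESeq2 (adjusted p = 0.0519). *Ebp*, a sterol isomerase, ranged from 650 to 769 and from 749 to 825 counts, and its log2 fold change of 0.17 (edgeR adjusted p = 0.0252) was the smallest of the sterol enzymes. *Dhcr7*, the reductase that ends one branch of the pathway, ranged from 829 to 1033 and from 1013 to 1122 counts, with a log2 fold change of 0.25 (edgeR adjusted p = 0.00291). The call for *Ebp* was lost when any one of 5 samples was left out, with adjusted p between 0.0531 and 0.0967 in those fits.

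**Figure D2:**
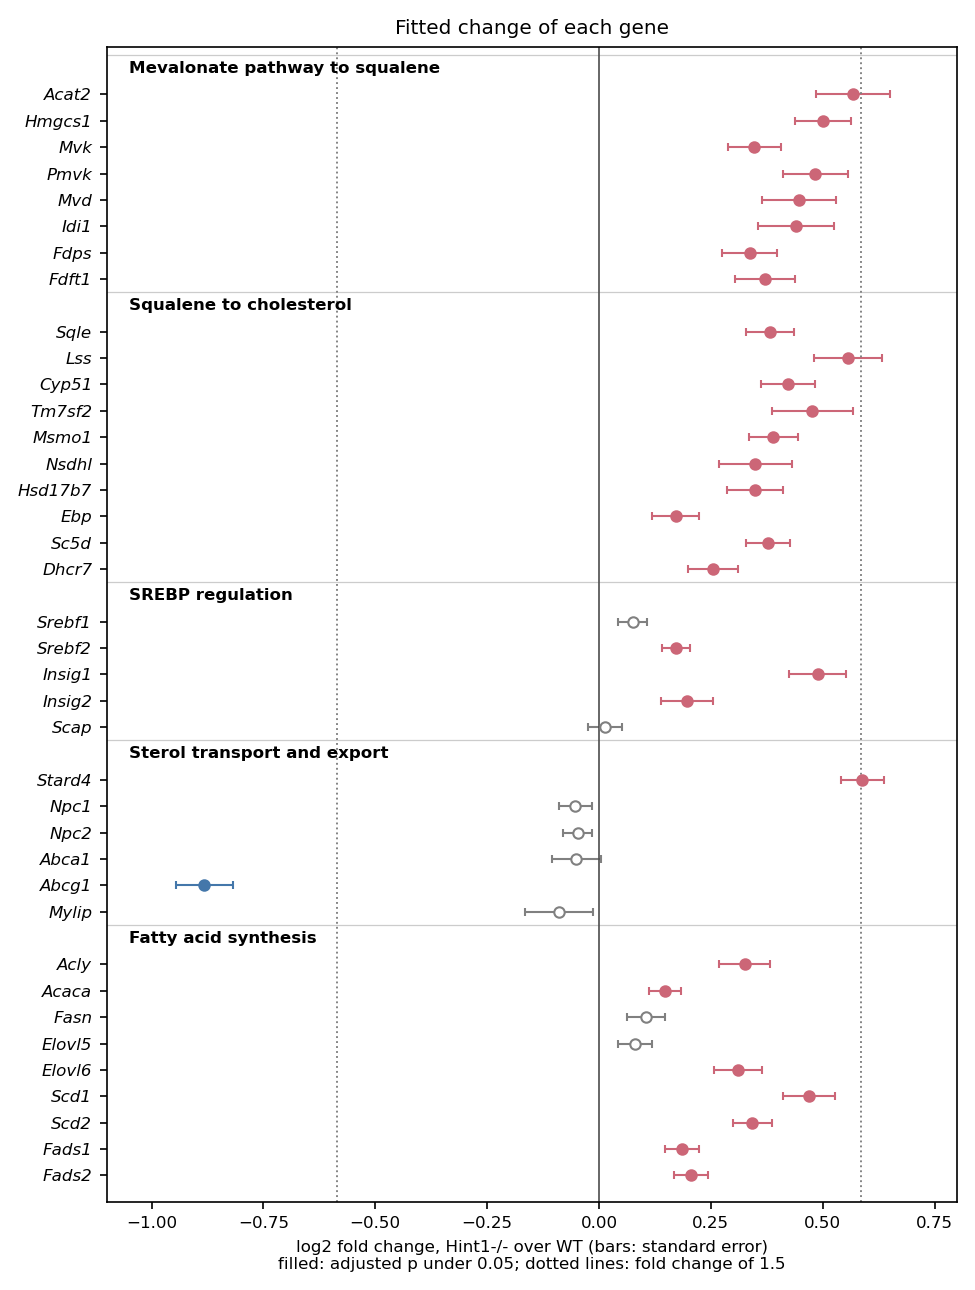
Fitted log2 fold change of each of the 38 genes, Hint1-/- over WT, with bars of 1 standard error (n = 4 per genotype). Filled symbols passed an adjusted p of 0.05 in edgeR, open symbols did not, and the dotted lines mark a fold change of 1.5. All 18 enzymes of sterol synthesis lie to the right of 0, and *Abcg1*, at −0.88, lies farthest from it.

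Among the 5 genes that regulate SREBP, *Srebf2*, *Insig1*, and *Insig2* were higher, with a median log2 fold change of 0.17 over the 5 and a summed level of 611 to 660 CPM in WT and 721 to 750 CPM in Hint1-/- samples. *Srebf2*, the gene of SREBP-2, had 3820, 3835, 4013, and 3958 counts in WT samples and 4273, 4342, 4438, and 4421 in Hint1-/- samples. The genotypes were apart and each was narrow, at 187 ± 4.58 CPM and 211 ± 3.37 CPM (SD, n = 4), with a log2 fold change of 0.17 (SE 0.0315, edgeR adjusted p = 0.000542). *Srebf1*, the gene of SREBP-1, had 3671, 3493, 3664, and 3639 counts in WT samples and 3937, 3692, 3775, and 3719 in Hint1-/- samples. Although all Hint1-/- samples of *Srebf1* lay above all WT samples in CPM, the log2 fold change was only 0.08 (SE 0.0333) and did not pass the test (edgeR adjusted p = 0.123). *Srebf1* lies 5.33 Mb from *Hint1* on chromosome 11 and shares 109 exon bases with *Rai1* on the other strand, and *Acaca*, *Acly*, and *Fasn* lie on the same chromosome between 29.3 Mb and 65.9 Mb from it.

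*Insig1* encodes the INSIG protein that holds SCAP in the endoplasmic reticulum and is itself a target of SREBP. It had 2806, 2853, 3172, and 3681 counts in WT samples and 4099, 4314, 4340, and 4667 in Hint1-/- samples. Every Hint1-/- sample was higher, and WT sample 4 was again the nearest, with a log2 fold change of 0.49 (SE 0.0637, edgeR adjusted p = 1.58e-05). *Insig2* ranged from 560 to 664 counts in WT and from 621 to 722 counts in Hint1-/- samples, which overlapped, with a log2 fold change of 0.20 (edgeR adjusted p = 0.0213). That call was lost when any one of 5 samples was left out, with adjusted p between 0.053 and 0.0779. *Scap*, the sterol sensor that carries SREBP to the Golgi, ranged from 1831 to 2056 and from 1927 to 2059 counts, with a log2 fold change of 0.01 (edgeR adjusted p = 0.859). Of 8 further genes for SREBP processing and turnover, among them those of both Golgi proteases, none was called by edgeR, DESeq2, or limma-voom, and none had an unadjusted p under 0.05 in any of the 3.

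**Figure D3:**
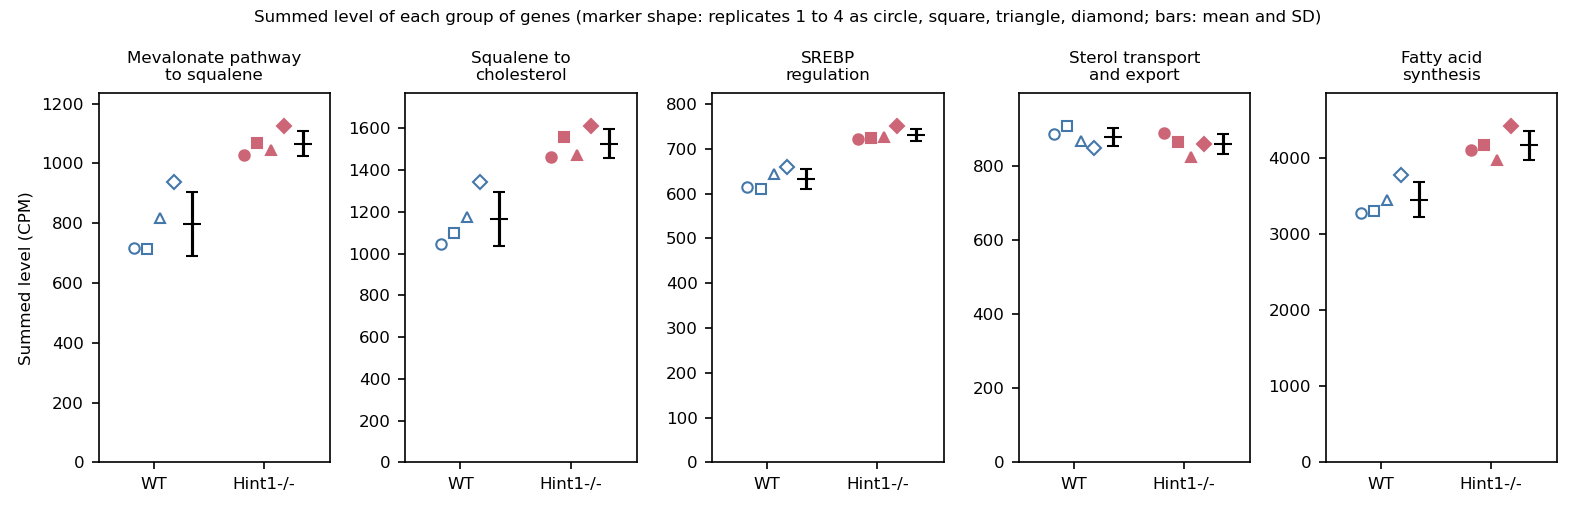
Summed CPM of each group of genes in every sample, with one panel per group, axes from 0, and bars of the mean and SD (n = 4). WT and Hint1-/- samples are apart in 4 panels, and the panel for sterol transport and export overlaps, at 850 to 907 CPM in WT and 825 to 890 CPM in Hint1-/- samples.

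The 6 genes of sterol transport and export comprised 1 that rose, 1 that fell, and 4 that were not called, with a median log2 fold change of −0.05. *Stard4* encodes a carrier that moves cholesterol between membranes and is known as a target of SREBP-2. It had 968, 1007, 1026, and 1121 counts in WT samples and 1465, 1570, 1466, and 1651 in Hint1-/- samples. Its lowest Hint1-/- sample was 1.31 times its highest WT sample, the widest gap of all the higher genes on the list. The log2 fold change was 0.59 (SE 0.0484, edgeR adjusted p = 5.48e-08), which is at the fold limit of 1.5, and it ranged from 0.55 to 0.63 when single samples were left out.

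*Abcg1* encodes a transporter that passes cholesterol to HDL, is induced by LXR, and is known to be expressed in macrophages. It had 755, 704, 689, and 627 counts in WT samples and 361, 340, 396, and 397 in Hint1-/- samples. All Hint1-/- samples were well below all WT samples, at 18.0 ± 1.31 CPM against 33.2 ± 2.53 CPM (SD, n = 4), or 0.543 of the WT mean. The log2 fold change was −0.88 (SE 0.0638, edgeR adjusted p = 9.25e-09), the lowest adjusted p of the 38 genes. WT sample 4, the highest WT sample for the sterol enzymes, was the lowest WT sample for *Abcg1*. The summed macrophage markers fell to 0.786 of the WT mean, and their part in the fall of *Abcg1* was not tested.

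*Abca1*, the other exporter that LXR induces, had 2737, 2887, 2593, and 2433 counts in WT samples and 2745, 2591, 2262, and 2605 in Hint1-/- samples. The genotypes overlapped throughout, with 117 to 138 CPM in WT and 109 to 132 CPM in Hint1-/- samples, and *Abca1* did not pass the test (log2 fold change −0.05, SE 0.0543, edgeR adjusted p = 0.566). *Mylip*, an LXR target whose product degrades lipoprotein receptors, ranged from 190 to 236 counts in WT and from 191 to 205 counts in Hint1-/- samples (log2 fold change −0.09, edgeR adjusted p = 0.452). *Npc1* and *Npc2*, which release cholesterol from lysosomes, had log2 fold changes of −0.05 each and were not called (edgeR adjusted p = 0.342 and 0.340). *Npc2* was the second most abundant of the 38 genes per exon length, at 106 CPM per kb in WT cells. The genes of the LXR proteins, *Nr1h3* and *Nr1h2*, had log2 fold changes of 0.08 and −0.02 and did not pass the test.

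Of the genes of fatty acid synthesis, 7 of 9 were higher in Hint1-/- cells, with a median log2 fold change of 0.20 over the 9 and a summed level of 3282 to 3778 CPM in WT and 3969 to 4414 CPM in Hint1-/- samples. *Acly*, which makes cytosolic acetyl-CoA from citrate, had 8018, 8184, 8834, and 10021 counts in WT samples and 10328, 10815, 10684, and 11759 in Hint1-/- samples. The Hint1-/- samples were all higher, with a log2 fold change of 0.33 (SE 0.0561, edgeR adjusted p = 0.000318). *Acaca*, the carboxylase that commits acetyl-CoA to fatty acids, ranged from 3702 to 3969 and from 4077 to 4510 counts, with a log2 fold change of 0.15 (edgeR adjusted p = 0.00648). *Fasn*, the synthase of the chain itself, had 13908, 13555, 14353, and 15378 counts in WT samples and 15125, 14649, 14807, and 16473 in Hint1-/- samples. WT sample 4 exceeded 3 of the Hint1-/- samples, and *Fasn* did not pass the test (log2 fold change 0.11, SE 0.0430, edgeR adjusted p = 0.0919). Of the fits with single samples left out, only the one without WT sample 4 called *Fasn* (log2 fold change 0.14, edgeR adjusted p = 0.016). Its edgeR adjusted p was 0.20 without WT sample 1, and its log2 fold change fell to 0.067 without Hint1-/- sample 4.

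Desaturation and elongation follow on the synthase. *Scd1*, a stearoyl-CoA desaturase, had 6104, 6264, 6708, and 7642 counts in WT samples and 8755, 9406, 8607, and 9941 in Hint1-/- samples. *Scd2*, its neighbour 87.6 kb away, had 23114, 23333, 23941, and 26533 counts in WT samples and 30302, 30748, 28750, and 32175 in Hint1-/- samples. Neither overlapped between genotypes, and the log2 fold changes were 0.47 for *Scd1* (SE 0.0583, edgeR adjusted p = 8.78e-06) and 0.34 for *Scd2* (SE 0.0440, edgeR adjusted p = 1.28e-05). Counts of both were fractional in every sample, which happens where ambiguous reads are shared out, so the split between these paralogs is uncertain. *Scd2* was the most abundant of the 38 genes per exon length, at 212 CPM per kb in WT and 269 CPM per kb in Hint1-/- cells, and *Scd1* stood at 65.3 CPM per kb in WT cells.

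*Elovl6*, which elongates saturated chains, had 1710, 1779, 1955, and 2104 counts in WT samples and 2303, 2269, 2207, and 2512 in Hint1-/- samples. All Hint1-/- samples were higher, with a log2 fold change of 0.31 (SE 0.0545, edgeR adjusted p = 0.000373). *Fads2*, a desaturase of polyunsaturated chains, had 5522, 5668, 5751, and 6283 counts in WT samples and 6647, 6774, 6484, and 6654 in Hint1-/- samples. It too was higher in every Hint1-/- sample, with a log2 fold change of 0.20 (SE 0.0381, edgeR adjusted p = 0.000649). *Fads1*, the next desaturase of that pathway, ranged from 4641 to 5071 and from 5155 to 5679 counts, with a log2 fold change of 0.19 (edgeR adjusted p = 0.0014). *Elovl5*, which elongates polyunsaturated chains, ranged from 1707 to 1846 and from 1775 to 1935 counts and was not called (log2 fold change 0.08, edgeR adjusted p = 0.147).

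**Figure D4:**
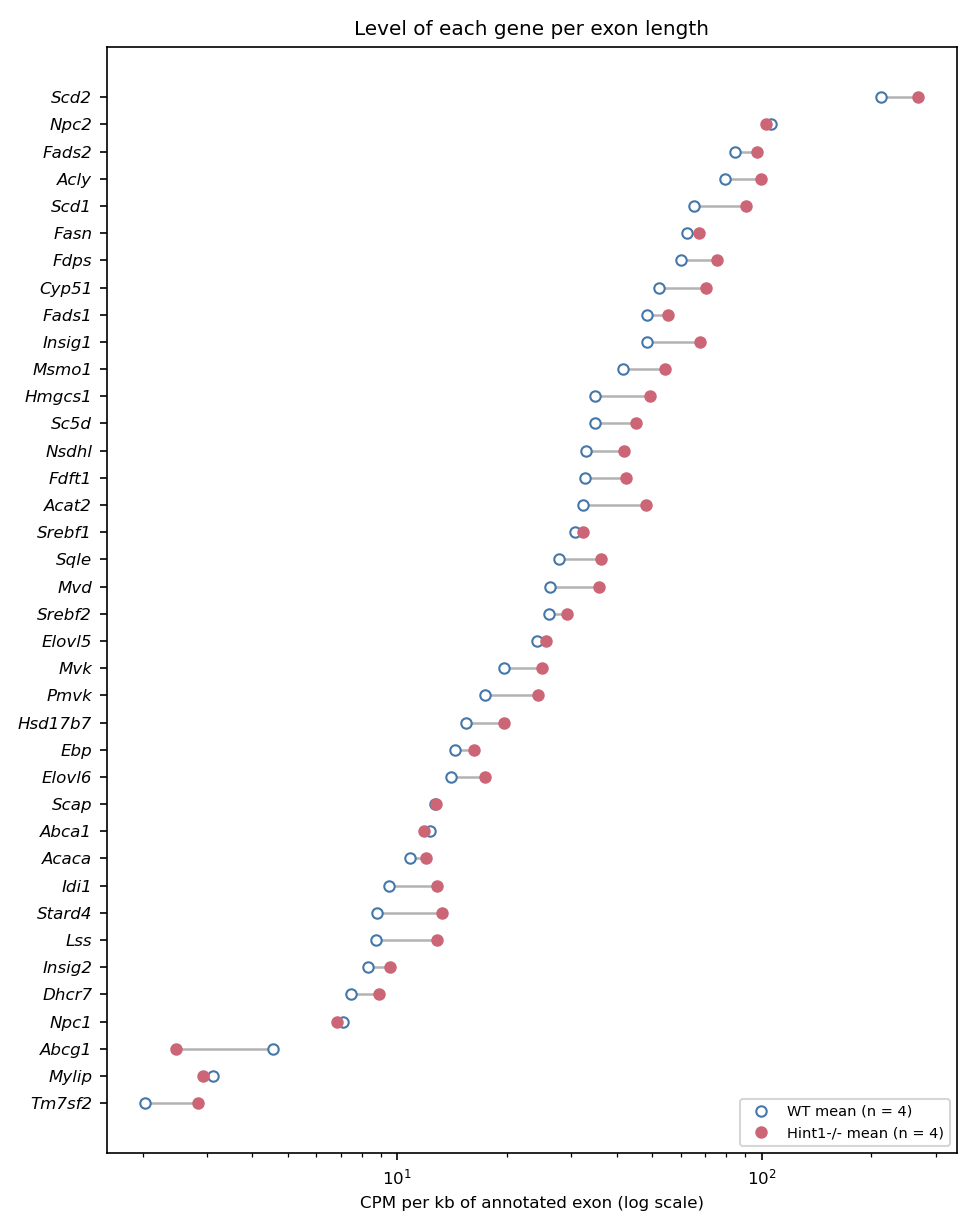
Mean CPM per kb of annotated exon for each of the 38 genes in WT (open) and Hint1-/- (filled) samples, n = 4 each, on a log axis, ordered by the WT level. *Scd2* is highest, at 212 CPM per kb in WT cells, *Tm7sf2* is lowest, at 2.04 CPM per kb, and called genes lie along the whole order.

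Beyond the 38 genes, 52 of 55 other genes of these pathways could be tested, and 15 were higher (28.8%), 8 were lower (15.4%), and 29 were not called, beside 11.2% higher and 10.2% lower among all tested genes. *Elovl3*, *Thrsp*, and *Mlxipl* had too few counts. Among enzymes and partners of isoprenoid and sterol synthesis, 3 of 8 were higher (37.5%) and 1 was lower (12.5%). *Tmem97*, a sterol-regulated membrane protein, rose (log2 fold change 0.24, edgeR adjusted p = 0.000365), and *Cyb5r3*, which supplies electrons to the oxidases of the pathway, fell (log2 fold change −0.11, edgeR adjusted p = 0.0202). *Lbr*, a sterol enzyme of this list, overlapped between genotypes, at mean levels of 39.4 CPM in WT and 41.6 CPM in Hint1-/- cells. It was not called (log2 fold change 0.08, edgeR adjusted p = 0.194), so not every sterol enzyme tested rose.

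Genes of sterol sensing, storage, and uptake went both ways, with 5 of 16 higher and 5 lower, 31.2% each. *Scarb1*, a receptor for HDL, rose (log2 fold change 0.34, SE 0.0352, edgeR adjusted p = 9.89e-07), and so did *Ch25h*, which makes an oxysterol (log2 fold change 0.26, SE 0.0405, edgeR adjusted p = 0.000129). The genes with the lowest adjusted p among those that fell were *Stard3*, a cholesterol carrier of endosomes (log2 fold change −0.30, SE 0.0448, edgeR adjusted p = 7.24e-05), and *Lipa*, which hydrolyses cholesteryl esters (log2 fold change −0.21, SE 0.0315, edgeR adjusted p = 9.20e-05).

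Of 20 tested genes of fatty acid supply, elongation, and activation, 7 were higher (35%) and 2 were lower, the latter a share near the 10.2% of all tested genes. *Acss2*, which makes acetyl-CoA from acetate and is known as a target of SREBP, had 479, 552, 608, and 779 counts in WT samples and 1027, 1106, 1023, and 1350 in Hint1-/- samples. It was higher in every Hint1-/- sample and the only one of the 52 genes past a fold change of 1.5, with a log2 fold change of 0.91 (SE 0.106, edgeR adjusted p = 3.99e-06). WT sample 4 had the highest WT count for *Acss2* as well. *Lpin1*, a phosphatase of glycerolipid synthesis, rose (log2 fold change 0.49, SE 0.0497, edgeR adjusted p = 6.82e-07). *Hacd2*, a dehydratase of elongation, fell (log2 fold change −0.28, edgeR adjusted p = 0.00229), and so did *Elovl4*, an elongase of very long chains with 36 counts or fewer in every sample (log2 fold change −0.57, edgeR adjusted p = 0.041).

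**Figure D5:**
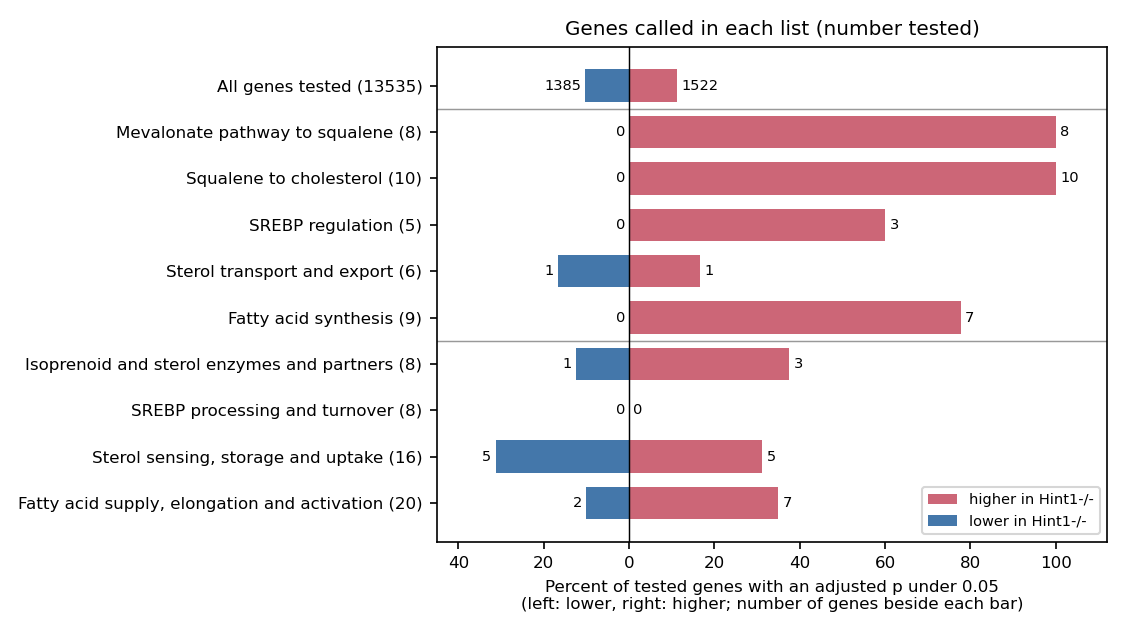
Share of tested genes in each list that passed an adjusted p of 0.05 in edgeR, with genes higher in Hint1-/- cells to the right and lower genes to the left, and the number of genes beside each bar. The top bar gives all 13535 tested genes, and below it the 8 and 10 sterol enzymes reach 100% on the right, while none of the 8 genes of SREBP processing was called.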

How the data were processed

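RNA-Seq of 8 MASMC samples, 4 WT and 4 Hint1-/-, was analysed, grouped by the genotype in the sample labels. The authors mapped the reads and deposited one expected count (estimated count) per gene symbol and sample, without normalization. The submitters' processing notes name Bowtie2, RSEM 1.3.1, DESeq2 1.4.5, and mm10, whereas the methods name HISAT2, and which of them gave the counts was not settled here. Expected counts divide ambiguous reads between genes, and 16 of the 38 genes had fractional values.

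Counts were rounded, filtered with filterByExpr, normalized by TMM, and compared between genotypes with glmQLFit and glmQLFTest (edgeR 4.0.16, R 4.3.3), two-sided, with Benjamini-Hochberg adjustment over 13535 genes. The standard error is the size of the log2 fold change divided by the square root of F. Depth was 20778077 to 20888041 counts per sample, and no molecular identifiers are described, so counting precision ignores duplicate reads. A chi-square per gene of 2.10 to 5.47 within genotypes and 11.8 to 17.2 between them showed no pair of samples within counting noise. The pipeline was tested on simulated data. Exon lengths and positions came from GENCODE M21 (mm10) and promoters from RefSeq, with Python 3.11.15. CPM per kb uses the union of annotated exons.

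Alternatives were DESeq2 size factors, upper-quartile normalization, no filter, at least 10 counts in every sample, DESeq2 1.42.0, limma-voom (limma 3.58.1), a replicate block, and each sample left out. The 38 genes, the further pathway lists, and the lists of smooth muscle, macrophage, adipocyte, endothelial, Schwann cell, and fibroblast markers were chosen with earlier results of these data known. By rule, counts in every sample are given for the 24 called genes with the lowest adjusted p and for *Srebf1*, *Srebf2*, *Insig1*, *Abca1*, *Fasn*, and *Scd1*. Named from the further lists were genes past both thresholds and the called genes with the lowest adjusted p, up to 2 in each direction of each list. The result for 1 of these genes is not reported here. *Lbr*, *Nr1h2*, *Nr1h3*, and the marker genes were named outside that rule, after their values were seen.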

Additional observations from a re-analysis of the deposited data

Results flagged for a closer look

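Single samples were compared with the other 3 of their genotype in 78 groups, one for each of the 38 genes and *Hint1* in each genotype. The measure was the gap to the nearest sample as a share of the group's range. It was taken on log2 CPM, so the counts printed below do not give the same shares. A share above Dixon's critical value for 4 samples marks a far sample, and chance marks about 1 group in 20, or 3.9 here, and 3 were marked, all in Hint1-/- samples. For *Acat2*, Hint1-/- sample 1, with 2369 counts, lay below the others, at 2558 to 2608, with a share of 0.847. For *Mvd*, Hint1-/- sample 4, with 1550 counts, lay above the others, at 1304 to 1336, with a share of 0.847. For *Lss*, Hint1-/- sample 4, with 3167 counts, lay above the others, at 2749 to 2819, with a share of 0.843. Leaving out the far sample left all 3 genes called higher. No WT sample was marked, WT sample 4 included. The rule looks at 1 gene at a time, so it cannot mark a sample for being highest across many genes, as WT sample 4 was.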

How the results depend on the processing

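The number of genes called higher was 28 to 30 under 7 alternatives and 27 to 30 with single samples left out, and the number called lower was 1 throughout. The genes past both thresholds, 2 in the main analysis, were 1 with upper-quartile normalization, where *Stard4* (log2 fold change 0.58) fell just under the fold limit, 3 with limma-voom, where *Acat2* was added, and 1 to 4 with single samples left out. They were 4 without WT sample 4, when *Acat2* and *Lss* joined, and 1, *Abcg1* alone, without WT sample 1, WT sample 2, Hint1-/- sample 2, or Hint1-/- sample 4. With single samples left out, the median log2 fold change was 0.34 to 0.45 for the enzymes from squalene to cholesterol and 0.18 to 0.25 for fatty acid synthesis, both highest without WT sample 4. *Scap* ranged from −0.020 to 0.032 and *Abca1* from −0.091 to 0.0043, neither called, with *Scap* negative without WT sample 4 (−0.020) or Hint1-/- sample 4 (−0.0076) and *Abca1* positive without Hint1-/- sample 3 (0.0043). No other gene of the 38 changed sign under these alternatives. *Nsdhl* lost its call under DESeq2, and *Ebp* and *Insig2* each lost theirs in 5 of 8 fits with a sample left out. In the further pathway lists DESeq2 called 3 isoprenoid and sterol genes, 9 of sterol sensing, storage, and uptake, and 8 of fatty acid supply, where edgeR called 4, 10, and 9. The causes were not tested.

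Over all tested genes, no pairing by replicate number was seen. Deviations of same-numbered samples correlated at −0.045 to 0.081, and those of differently numbered samples at −0.070 to 0.13. This does not settle pairing within the sterol genes, where sample 4 was highest in 18 of 18 genes in WT and 15 of 18 in Hint1-/- samples. Pairing there was not tested. With the replicate block, 30 genes were called higher and 1 lower, *Fasn* being the one gained (edgeR adjusted p = 0.025), and 3082 genes were called in all against 2907. The block lowered the edgeR adjusted p of each of the 18 sterol genes, to unlike degrees. It went from 2.70e-05 to 6.76e-08 for *Lss* and from 0.0252 to 0.0207 for *Ebp*. For *Abcg1* it rose from 9.25e-09 to 2.5e-08. Depth limits the scarcer genes most, and the lowest count of any of the 38 genes in a sample was 170, for *Tm7sf2*.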
